A study of Macaca mulatta with 25 samples.

Results

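The genes described here are used as markers of T cells and natural killer cells, lymphocytes that recognise infected or foreign cells and can kill them. Not all of these genes are limited to those cells. They were followed in the cervix of rhesus macaques (Macaca mulatta) through an artificial menstrual cycle. A list of 43 genes was taken by symbol, and the array annotation names 34 of them on a probe set with a single symbol, out of 15534 genes named in that way. Each of the 34 has 1 probe set. CD3D, CD3E, LCK, LAT, THEMIS, KLRB1, PRF1, GZMA and GNLY are not listed with a single symbol in that annotation and were not analysed here.

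T cells carry an antigen receptor whose signal passes through the CD3 chains and the kinase ZAP70, and CD28 adds the co-stimulus that a naive T cell needs. Natural killer cells lack that receptor and read a balance of activating and inhibiting receptors, such as KLRK1 (NKG2D) and KLRD1 (CD94). Both lineages can store granules of granzymes, and the transcription factors TBX21 (T-bet) and EOMES drive that cytotoxic programme. In the primate reproductive tract, lymphocytes lie within and beneath the epithelium, and natural killer cells gather in the secretory-phase endometrium. Interleukin-15 is a main growth and survival factor of natural killer cells and memory CD8 T cells, and it acts through IL2RB and IL2RG.

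All 25 animals were adult, had their ovaries removed and carried a subcutaneous estradiol implant, so every group, the reference included, was under estradiol. The E2 group received estradiol alone for 14 days. The other groups also carried progesterone implants and are named by the days of exposure, which lasted 1 day in E+1P, 3 days in E+3P, then 7 in E+7P and finally 14 in E+14P. By the labels each group held 5 animals with 1 array each, so the spread within a group is a spread between animals. Each sample title also carries a number, whose meaning the title does not state. That number was lower for every E+14P sample than for every E2 sample. Between E+14P and E2, a difference that goes with that number cannot be told apart from one of treatment. The series' design text gives other numbers of animals for some groups, and the sample labels were followed here. The labels give neither the animals' ages nor the days of estradiol in the progesterone groups. RNA came from cervix dissected fresh at necropsy and frozen, and the labels do not say which part of the cervix was taken. Values are log2 signals as the submitters deposited them, so a difference of 1 is a 2-fold change. In such bulk tissue a smaller number of cells of a type and less RNA per cell cannot be told apart.

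The hormone labels were checked with 2 genes that are no lymphocyte markers. The progesterone receptor PGR, which progesterone lowers, fell from a mean of 10.75 in E2 to between 9.19 and 9.99 in the other groups. FKBP5, a target of progesterone and glucocorticoid receptors, rose from 5.68 to between 7.17 and 8.06 (limma adjusted p at most 0.0354 for PGR and 0.000356 for FKBP5 in each of the 4 comparisons). Array medians lay between 5.50 and 5.60. On 3 arrays the mean signal of an epithelial gene list was more than 4 scaled median absolute deviations away from that of the median array. They were E+3P replicate 2 (low columnar and ciliated cell genes), E+3P replicate 3 (high squamous, low ciliated) and E+14P replicate 4 (low ciliated).

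The lymphocyte genes were moderately to weakly bright. Their mean signals ran from 3.15 to 7.19 with a median of 5.24, where the median of all probe sets was 5.54. CTLA4, ICOS, CD69, TIGIT and UBASH3A lay under the lower quartile of all probe sets, and 11 of the 34 lay above the median probe set. Signal over background is unknown, so a dim gene such as CTLA4 cannot be said to be expressed or not. PTPRC (CD45), the phosphatase of all leukocytes, the granzyme GZMK and the granule protein CST7 were among the brightest.

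Over an array, the mean signal of the 34 genes was 5.02 ± 0.24 in E2 (SD, n = 5 here and in every group), 5.15 ± 0.17 in E+1P, 5.21 ± 0.49 in E+3P, 5.36 ± 0.21 in E+7P and 5.70 ± 0.21 in E+14P. The 5 arrays of E+14P ran from 5.46 to 6.04 and none overlapped the E2 arrays, which ran from 4.65 to 5.28. E+3P spanned almost the whole scale, from 4.70 to 6.01. Its replicate 3 was the highest of all 25 arrays for 13 genes, and its replicate 5 was the lowest for 8. E+14P replicate 4 was the highest for 12 genes. By group means, 24 genes were highest in E+14P, 7 in E+3P, 2 in E+7P, 1 in E+1P and 0 in E2, while 20 were lowest in E2.

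**Figure D1:**
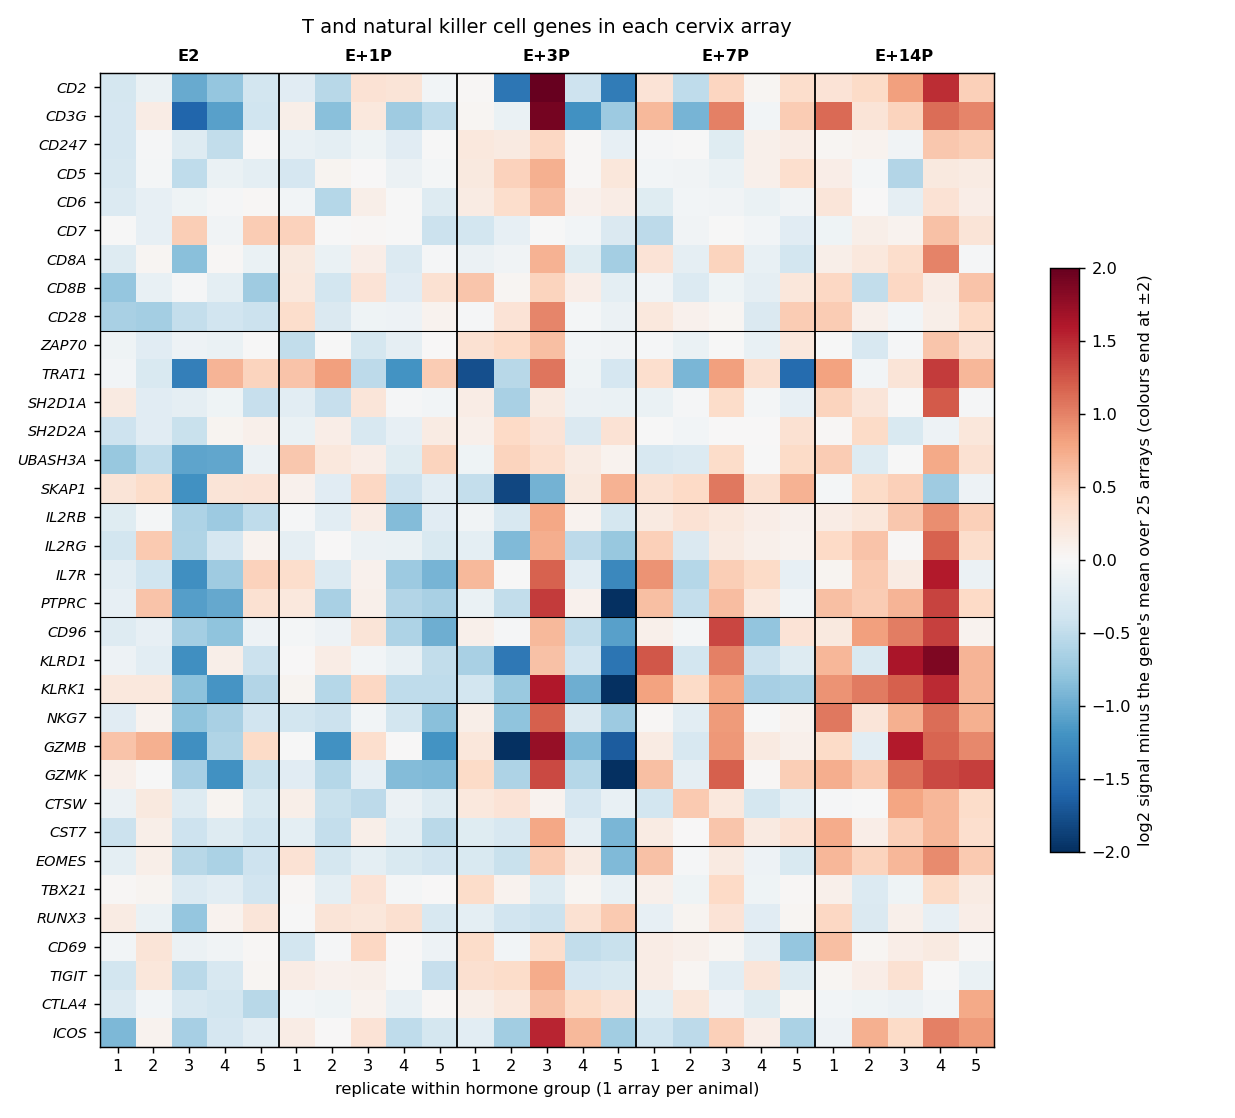
Log2 signal of each of the 34 genes (rows, grouped by role) on each of the 25 arrays (columns, by group and replicate), minus the gene's mean over all arrays. Red is above and blue below that mean, and colours end at a difference of 2 log2 units. The E+14P arrays are mostly red, and E+3P replicate 3 is red beside paler or blue arrays of its own group.

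The first question was how each length of progesterone exposure differed from estradiol alone. At 14 days more genes of the list were called than at the shorter exposures. The log2 fold change was above 0 for 34 of 34 genes (54.3% of all 15534 genes), with a median of 0.69 (all genes 0.026). Leaving out 1 array turned 3 of the smallest changes below 0, those of SKAP1 (to -0.29 without E2 replicate 3, -0.079 without E+14P replicate 2 and -0.10 without E+14P replicate 3), CD7 (between -0.062 and -0.0017 without E2 replicate 1, 2 or 4 or E+14P replicate 4) and RUNX3 (-0.045 without E2 replicate 3). For 10 genes (29.4%) the lowest E+14P array exceeded the highest E2 array, against 3.7% of all genes, and for 0 genes were all arrays below (3.99% of all genes). By limma with Benjamini-Hochberg adjustment over all probe sets and a threshold of 0.05, 6 genes were higher and 0 lower, or 17.6% of the list, where 2.26% of all genes were called higher and 3.53% lower. Those 6 were NKG7, EOMES, UBASH3A, IL2RB, CST7 and CD28. The list was chosen with earlier results of these data known, so its shares are no independent comparison with all genes.

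**Figure D2:**
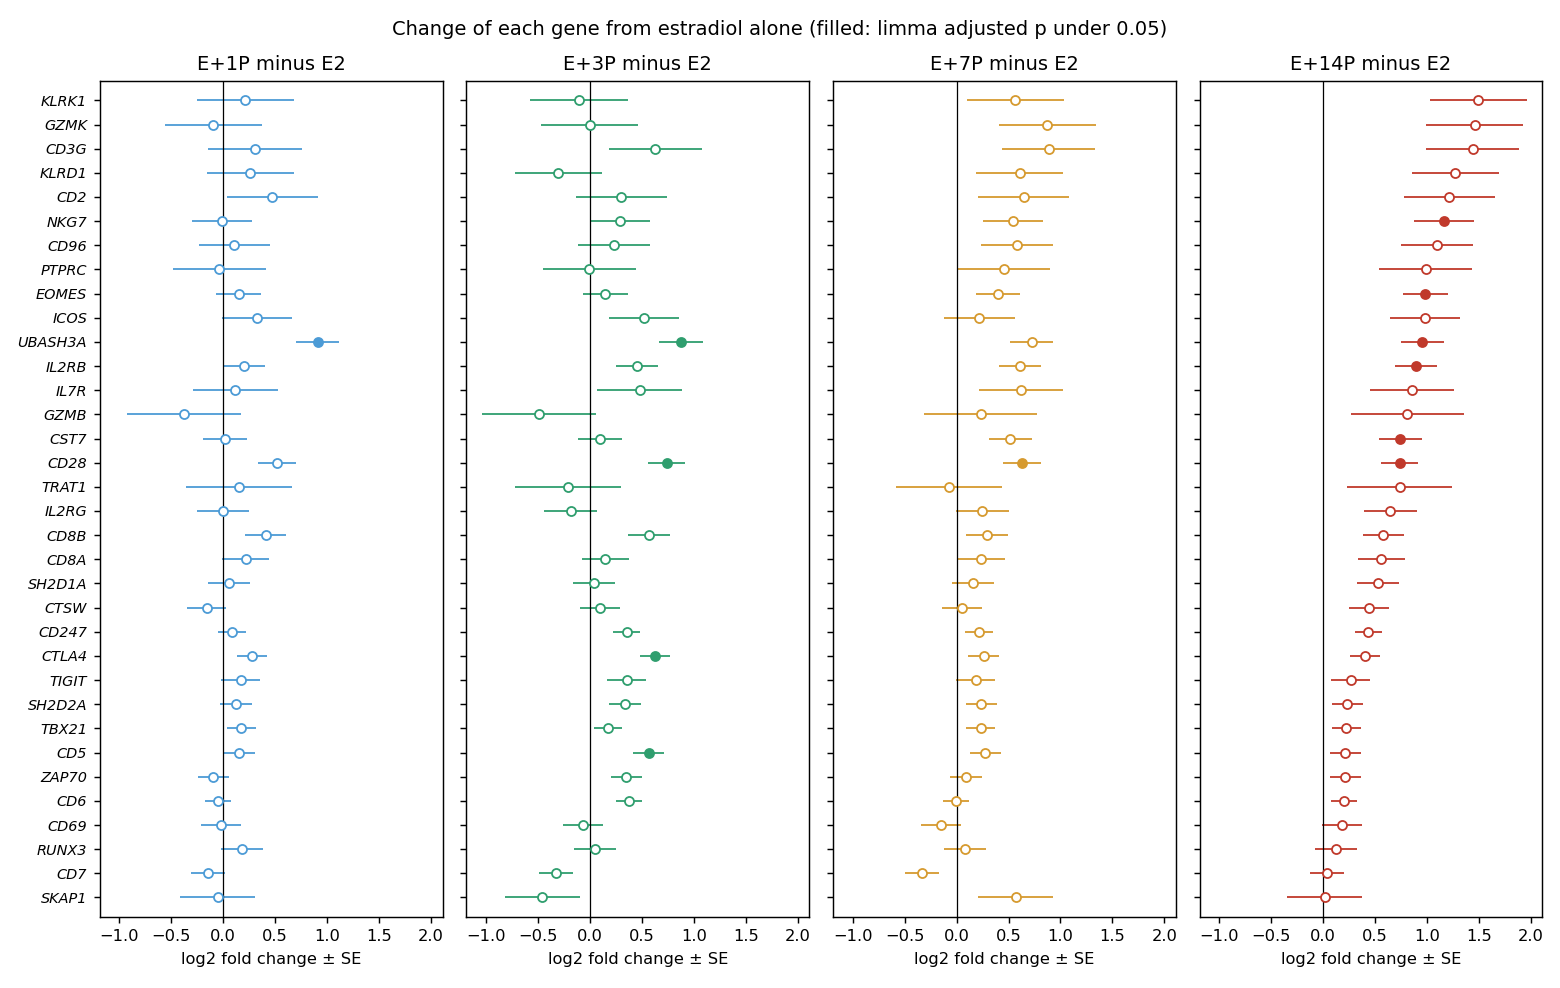
Log2 fold change of each of the 34 genes from E2 in the 4 progesterone groups, with its standard error, ordered by the change in E+14P. Filled points passed an adjusted p of 0.05. In the E+14P panel all 34 points lie to the right of 0, and in the E+1P panel they scatter around it.

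The shorter exposures gave fewer calls. At 1 day 1 gene was higher (2.94% of the list, 2.09% of all genes) and 0 lower (1.47% of all genes), and that gene was UBASH3A. The change was above 0 for 23 genes (49.8% of all genes), with a median of 0.14, and for 1 gene the arrays did not overlap and lay above E2 (4.29% of all genes). At 3 days 4 genes were higher (11.8%, against 5.03% of all genes) and 0 lower (7.16% of all genes), namely CTLA4, UBASH3A, CD28 and CD5. The change was above 0 for 24 genes (56.2% of all genes), with a median of 0.20, and 5 genes had all arrays above E2 (3.78% of all genes). At 7 days 1 gene was higher (2.94%, against 2.27%) and 0 lower (3.58% of all genes), namely CD28. The change was above 0 for 30 genes (53.7% of all genes), with a median of 0.27, and 2 genes had all arrays above E2 (4.36% of all genes). The medians of all genes were -0.0012, 0.049 and 0.023. The shares called at 1 and 7 days are close to those of all genes. All 4 comparisons share the 5 E2 arrays.

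Of the 4 calls at 3 days, those of CTLA4, UBASH3A and CD28 held without any single array (highest adjusted p 0.0339). That of CD5 was lost without E+3P replicate 3 (0.0527). Without the 3 arrays that stand apart in epithelial genes, 0 of the 4 calls passed (adjusted p 0.061 for CTLA4, 0.0702 for UBASH3A, 0.115 for CD28 and 0.161 for CD5). The list's median change at 3 days was 0.059 without E+3P replicate 3 and 0.42 without replicate 5. At 14 days the call count was 3 without E+14P replicate 1, 11 without E+3P replicate 3, and 7 without the 3 arrays that stand apart. When a change of over 1.5-fold was demanded, 0 genes were called at any time.

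**Figure D3:**
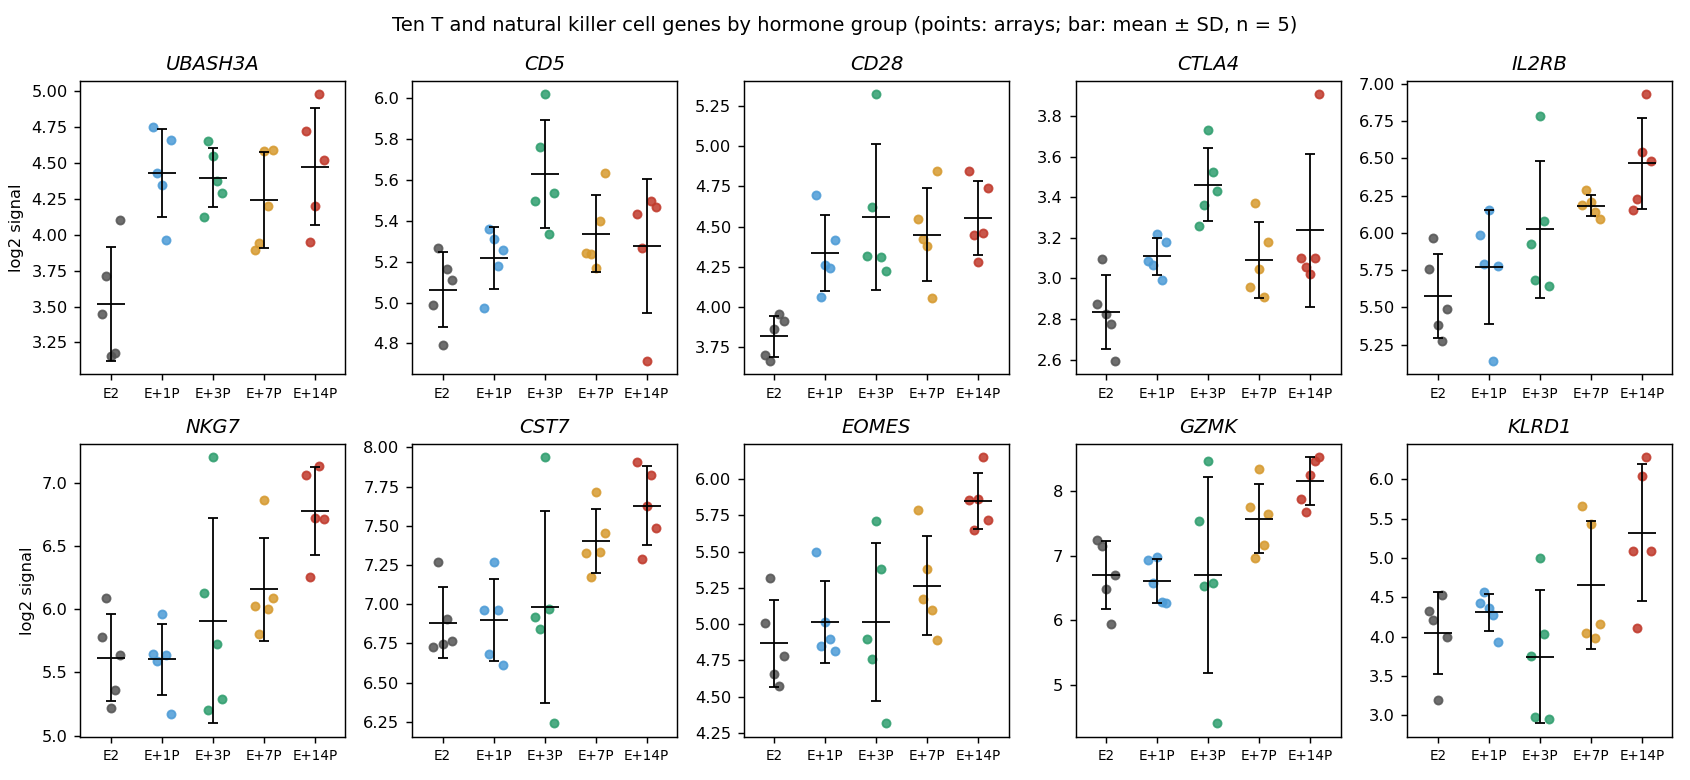
Log2 signal of 10 of the genes on each array (points) by group, with the mean ± SD of 5 arrays (bars). The vertical axes differ. NKG7, CST7, EOMES and GZMK are highest in E+14P, CTLA4 and CD5 are highest in E+3P, and UBASH3A and CD28 are above E2 from E+1P on.

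Among the antigen receptor chains, co-receptors and co-stimulators, 9 of 11 genes were measured. In role groups this small, a call is a result about its gene and not about the group. At 14 days 1 of the 9 rose (2.26% of all genes were called higher), and the median change was 0.56 (all genes 0.026). At 3 days 2 of the 9 rose (5.03% of all genes were called higher), with a median of 0.38 (all genes 0.049). The gene that rose at both times was CD28, the co-stimulatory receptor for CD80 and CD86. CD28 signals were 3.70, 3.67, 3.86, 3.96 and 3.91 in E2, 4.69, 4.06, 4.26, 4.24 and 4.42 in E+1P, 4.31, 4.62, 5.32, 4.31 and 4.23 in E+3P, 4.55, 4.43, 4.38, 4.06 and 4.85 in E+7P, and 4.85, 4.45, 4.28, 4.46 and 4.74 in E+14P. Every array of every progesterone group lay above every E2 array, the highest of which was 3.96. The change was 0.74 ± 0.18 (SE) at 3 days (adjusted p = 0.013), 0.63 ± 0.18 at 7 days (adjusted p = 0.0485) and 0.74 ± 0.18 at 14 days (adjusted p = 0.0225), and at 1 day 0.51 ± 0.18 (adjusted p = 0.162). The 14-day call was lost without E2 replicate 1 (0.0548), E2 replicate 2 (0.0576), E+14P replicate 1 (0.0603) or E+14P replicate 5 (0.0555). The 7-day call was lost when any of 19 of the 25 arrays was left out, with an adjusted p of up to 0.148, and held only without E+1P replicate 1, E+3P replicate 3 or 5, E+7P replicate 4 or E+14P replicate 1 or 3.

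CD5, a scavenger-type receptor that dampens antigen receptor signals, had a different time course. CD5 signals were 4.99, 5.27, 4.79, 5.16 and 5.11 in E2, 4.98, 5.36, 5.31, 5.18 and 5.26 in E+1P, 5.50, 5.76, 6.02, 5.34 and 5.53 in E+3P, 5.24, 5.24, 5.17, 5.40 and 5.64 in E+7P, and 5.44, 5.27, 4.71, 5.50 and 5.47 in E+14P. The 5 arrays of E+3P lay above all E2 arrays, while those of E+14P ran from below to above the E2 range. CD5 rose at 3 days by 0.57 ± 0.15 (adjusted p = 0.0196). Leaving out E+3P replicate 3 ended that call (adjusted p = 0.0527). At 14 days its change was 0.21 ± 0.15 (adjusted p = 0.511). CD6, the related receptor encoded next to CD5, also had all 5 E+3P arrays (5.53 to 6.05) above the E2 arrays (5.16 to 5.46), with a change of 0.38 ± 0.13 that missed the threshold (adjusted p = 0.0551).

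The signalling chain CD3G of the receptor complex was 3.86 to 5.60 in E2 and 5.72 to 6.59 in E+14P, and the 2 ranges do not overlap. Its change of 1.44 ± 0.45 did not pass the test over all 5 groups (adjusted p = 0.0776), but passed when only E2 and E+14P were fitted (adjusted p = 0.0418) and without E+3P replicate 3 (adjusted p = 0.0211). CD2, an adhesion receptor of T and natural killer cells, was 4.39 to 5.26 in E2 and 5.67 to 6.88 in E+14P, with a change of 1.21 ± 0.44 (adjusted p = 0.136, and 0.0321 in the fit of those groups alone). In E+3P the same gene ran from 3.95 to 7.49, wider than in any other group. CD247, the zeta chain, changed by 0.44 ± 0.13 at 14 days (adjusted p = 0.0725). The co-receptor chains of cytotoxic T cells changed by 0.56 ± 0.23 for CD8A (adjusted p = 0.194) and 0.58 ± 0.20 for CD8B (adjusted p = 0.119). CD7, a marker shared by T and natural killer cells, had 0.04 ± 0.16 (adjusted p = 0.939).

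Of the proximal signalling genes 6 of 9 were measured. At 1, 3 and 14 days 1 of the 6 rose (2.09%, 5.03% and 2.26% of all genes were called higher). It was UBASH3A (STS-2), a phosphatase-like inhibitor of antigen receptor signalling in T cells. UBASH3A signals were 3.45, 3.71, 3.15, 3.18 and 4.10 in E2, 4.75, 4.43, 4.34, 3.96 and 4.66 in E+1P, 4.13, 4.65, 4.55, 4.38 and 4.29 in E+3P, 3.89, 3.94, 4.58, 4.20 and 4.59 in E+7P, and 4.72, 3.95, 4.20, 4.98 and 4.52 in E+14P. Its E2 array of replicate 5, at 4.10, overlapped the lowest arrays of E+1P, E+7P and E+14P, and the other E2 arrays lay below every progesterone array. The change was 0.91 ± 0.21 at 1 day (adjusted p = 0.0191), 0.88 ± 0.21 at 3 days (adjusted p = 0.0112), 0.72 ± 0.21 at 7 days (adjusted p = 0.0512) and 0.95 ± 0.21 at 14 days (adjusted p = 0.0107). The 1-day call was lost without E2 replicate 4 (0.0619), E+1P replicate 1 (0.0618) or E+1P replicate 5 (0.0573). The 14-day call held without any single array, but not when only E2 and E+14P were fitted (adjusted p = 0.0649).

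The other 5 signalling genes passed no test. ZAP70, the kinase bound by the phosphorylated CD3 chains, changed by 0.35 ± 0.15 at 3 days (adjusted p = 0.134) and 0.21 ± 0.15 at 14 days (adjusted p = 0.516). SH2D1A (SAP), the adaptor of SLAM family receptors, changed by 0.53 ± 0.20 at 14 days (adjusted p = 0.169), and SH2D2A, a T cell adaptor, by 0.23 ± 0.15 (adjusted p = 0.471). TRAT1, which stabilises the receptor complex, was among the most variable genes between animals, and its change was 0.73 ± 0.51 (adjusted p = 0.504). SKAP1, an adaptor that couples the receptor to integrins, had the smallest 14-day change of all 34, 0.02 ± 0.36 (adjusted p = 0.99). SKAP1 was 7.76 on E+3P replicate 5, the lowest array for 8 genes, and 6.12 on E+3P replicate 3, the highest for 13. RUNX3 was 5.71 and 4.76 on the same arrays. These 2 genes thus ran against most of the list there.

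All 4 genes of the cytokine receptor group were measured. At 14 days 1 rose (2.26% of all genes were called higher), and the median change was 0.87. That gene was IL2RB, the beta chain through which both interleukin-2 and interleukin-15 signal. IL2RB signals were 5.76, 5.96, 5.38, 5.28 and 5.49 in E2, 5.99, 5.79, 6.15, 5.14 and 5.78 in E+1P, 5.93, 5.69, 6.78, 6.08 and 5.65 in E+3P, 6.19, 6.29, 6.21, 6.14 and 6.09 in E+7P, and 6.16, 6.22, 6.54, 6.93 and 6.48 in E+14P. The arrays of E+7P and E+14P all lay above the highest E2 array, and those of E+7P spanned only 6.09 to 6.29. IL2RB was 1.86-fold higher in E+14P than in E2 (0.89 ± 0.20 on the log2 scale, adjusted p = 0.0124), and this call held without any single array (highest adjusted p 0.0492). At 7 days the change was 0.61 ± 0.20 (adjusted p = 0.0944). The common gamma chain IL2RG changed by 0.64 ± 0.25 at 14 days (adjusted p = 0.183), IL7R, the interleukin-7 receptor of resting T cells, by 0.86 ± 0.41 (adjusted p = 0.283), and PTPRC by 0.99 ± 0.45 (adjusted p = 0.257). For each of these genes E2 and E+14P arrays overlapped.

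Natural killer type receptors were represented by 3 of 4 genes. They had the largest median change of the 7 role groups at 14 days, 1.27, and 0 of the 3 passed the test. KLRD1 signals were 4.32, 4.21, 3.19, 4.53 and 3.99 in E2, 4.42, 4.56, 4.36, 4.27 and 3.93 in E+1P, 3.76, 2.98, 5.00, 4.03 and 2.95 in E+3P, 5.66, 4.05, 5.43, 3.99 and 4.16 in E+7P, and 5.08, 4.11, 6.04, 6.28 and 5.09 in E+14P. In E+14P 4 of the 5 arrays exceeded the highest E2 value, 4.53, and replicate 2 lay within the E2 range. The change of KLRD1 was 1.27 ± 0.42 (adjusted p = 0.0957), and -0.31 ± 0.42 at 3 days (adjusted p = 0.675). Without E+14P replicate 2 the 14-day change passed (adjusted p = 0.0363).

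KLRK1, encoded next to KLRD1 in the natural killer gene complex, had the largest change of all 34 genes at 14 days. KLRK1 was 5.18 to 6.57 in E2 and 7.04 to 7.85 in E+14P, a change of 1.49 ± 0.47 (adjusted p = 0.0796). In the fit of those 2 groups alone, which leaves out the widely spread E+3P arrays (4.16 to 7.96), its adjusted p was 0.0246. It also passed without E+3P replicate 3 (0.0168) or E+3P replicate 5 (0.0372). CD96, a receptor of the nectin family ligands on T and natural killer cells, was 4.09 to 4.78 in E2 and 4.96 to 6.26 in E+14P without overlap, a change of 1.10 ± 0.35 (adjusted p = 0.0816, and 0.0494 without E+7P replicate 3).

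Of the cytotoxic granule genes 5 of 8 were measured. At 14 days 2 rose (2.26% of all genes were called higher), with a median change over the 5 of 0.81. At 1 and 3 days the medians were -0.095 and 0.099 and 0 of the 5 were called. NKG7, a granule membrane protein needed for degranulation, gave 5.79, 6.09, 5.22, 5.36 and 5.64 in E2, 5.65, 5.59, 5.97, 5.64 and 5.17 in E+1P, 6.13, 5.20, 7.21, 5.73 and 5.29 in E+3P, 6.03, 5.80, 6.87, 6.01 and 6.09 in E+7P, and 7.06, 6.26, 6.73, 7.14 and 6.72 in E+14P. The 5 arrays of E+14P lay above the highest E2 array, 6.09, and in E+3P only replicate 3, at 7.21, was as high. NKG7 was 2.24-fold higher at 14 days (1.16 ± 0.29 on the log2 scale, adjusted p = 0.0236). The call was lost without E2 replicate 3 (0.0544), E2 replicate 4 (0.0637), E+14P replicate 1 (0.0561) or E+14P replicate 4 (0.0722).

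CST7 (cystatin F), an inhibitor of the cathepsins that activate granzymes, gave 6.73, 7.27, 6.75, 6.90 and 6.77 in E2, 6.96, 6.68, 7.27, 6.96 and 6.61 in E+1P, 6.92, 6.84, 7.94, 6.97 and 6.24 in E+3P, 7.32, 7.17, 7.72, 7.33 and 7.45 in E+7P, and 7.91, 7.29, 7.63, 7.83 and 7.49 in E+14P. All arrays of E+14P lay above the highest E2 array, 7.27, replicate 2 only just, at 7.29. CST7 rose by 0.74 ± 0.21 at 14 days, just past the threshold (adjusted p = 0.0469). This call was lost in 19 of 25 fits without 1 array, with an adjusted p of up to 0.118, and held only without E2 replicate 2, E+1P replicate 3, E+3P replicate 2, 3 or 5 or E+14P replicate 2.

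GZMK, the granzyme of memory-type CD8 T cells and some natural killer cells, gave 7.25, 7.15, 6.49, 5.95 and 6.70 in E2, 6.93, 6.58, 6.99, 6.28 and 6.28 in E+1P, 7.54, 6.53, 8.47, 6.58 and 4.40 in E+3P, 7.76, 6.97, 8.34, 7.17 and 7.65 in E+7P, and 7.89, 7.68, 8.25, 8.48 and 8.53 in E+14P. The lowest E+14P value exceeded the highest of E2, while in E+3P the 5 animals ran from 4.40 to 8.47. The change was 1.46 ± 0.47 at 14 days (adjusted p = 0.0871), and 0.87 ± 0.47 at 7 days (adjusted p = 0.353). With only E2 and E+14P in the fit its adjusted p was 0.0204, and it also passed without E+3P replicate 3 (0.038) or 5 (0.0116). GZMB, the apoptosis-inducing granzyme, varied most between animals of a group, with a pooled SD of 0.93, and changed by 0.81 ± 0.55 (adjusted p = 0.491). CTSW, a cathepsin of cytotoxic lymphocytes, changed by 0.44 ± 0.19 (adjusted p = 0.228).

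Of the 3 lineage transcription factors EOMES rose at 14 days (2.26% of all genes were called higher). EOMES signals were 5.01, 5.32, 4.65, 4.58 and 4.78 in E2, 5.50, 4.85, 5.01, 4.89 and 4.82 in E+1P, 4.90, 4.76, 5.71, 5.38 and 4.31 in E+3P, 5.79, 5.17, 5.38, 5.09 and 4.89 in E+7P, and 5.86, 5.65, 5.86, 6.15 and 5.72 in E+14P. The E+14P arrays, from 5.65 to 6.15, lay above all E2 arrays, and of the other arrays E+3P replicate 3 and E+7P replicate 1 reached their range. EOMES was 1.97-fold higher in E+14P than in E2 (0.98 ± 0.22 on the log2 scale, adjusted p = 0.011), and the call held without any single array (highest adjusted p 0.0406). Its relative TBX21 changed by 0.22 ± 0.14 at 14 days (adjusted p = 0.452), and RUNX3, which acts in CD8 T cell fate, by 0.13 ± 0.20 (adjusted p = 0.813). Whether the change of EOMES differs from those of TBX21 and RUNX3 was not tested.

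All 4 activation and checkpoint receptors were measured. At 3 days 1 of the 4 rose (5.03% of all genes were called higher), with a median change of 0.44. At 14 days 0 of the 4 were called, with a median of 0.33. CTLA4, the inhibitory counterpart of CD28, gave 2.87, 3.10, 2.83, 2.78 and 2.59 in E2, 3.09, 3.07, 3.22, 2.99 and 3.18 in E+1P, 3.26, 3.36, 3.73, 3.52 and 3.43 in E+3P, 2.96, 3.37, 3.05, 2.91 and 3.18 in E+7P, and 3.10, 3.06, 3.02, 3.10 and 3.91 in E+14P. The lowest E+3P value, 3.26, exceeded the highest E2 value, 3.10, and in E+14P replicate 5 stood far above the other 4. CTLA4 rose at 3 days by 0.63 ± 0.15 (adjusted p = 0.00981) and changed by 0.40 ± 0.15 at 14 days (adjusted p = 0.139). It was also among the dimmest genes of the list. ICOS, a co-stimulator encoded next to CTLA4 and CD28, changed by 0.98 ± 0.34 at 14 days (adjusted p = 0.117, and 0.0433 without E+3P replicate 3). TIGIT, an inhibitory receptor that competes with CD226 for nectin-like ligands, changed by 0.26 ± 0.19 (adjusted p = 0.518). CD69, an early activation and tissue-retention receptor, changed by 0.18 ± 0.19 (adjusted p = 0.692).

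The next comparisons asked whether consecutive times differed from each other. Between E+1P and E+3P 0 of the 34 genes passed the test (1.76% of all genes were called higher and 4.13% lower), between E+3P and E+7P 0 (0.00644% higher, 0% lower), and between E+7P and E+14P 0 (0% in either direction). At an unadjusted p under 0.05 the counts were 4 in each of the 3 comparisons, or 11.8% of the list, against 25.2%, 12.2% and 3.71% of all genes. From E+7P to E+14P the change was above 0 for 30 of the 34 genes, with a median of 0.33, where it was above 0 for 50.3% of all genes, with a median of 0.0012. From E+1P to E+3P and from E+3P to E+7P it was above 0 for 20 genes each (56.9% and 46.2% of all genes), with medians of 0.088 and 0.10. Neither median kept its sign without single arrays. The first was -0.079 without E+3P replicate 3, and the second was -0.0076 without E+3P replicate 5 and -0.024 without E+7P replicate 3. For 18 genes the group means rose in order over 3, 7 and 14 days. The calls against E2 thus do not show at which step a gene changed.

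The mean of the 4 progesterone groups was set against E2 as well. By that test 4 genes were higher (11.8%, against 3.53% of all genes) and 0 lower (5.63% of all genes). The change was above 0 for 32 genes (55.5% of all genes), with a median of 0.32. The 4 genes called were UBASH3A (0.87 ± 0.17, adjusted p = 0.00231), CD28 (0.66 ± 0.14, adjusted p = 0.0067), CTLA4 (0.39 ± 0.12, adjusted p = 0.0435) and IL2RB (0.54 ± 0.16, adjusted p = 0.0436). The calls of UBASH3A and CD28 held without any single array. That of CTLA4 was lost in 12 of 25 such fits (E2 replicates 1, 3, 4 and 5, E+1P replicates 1, 2, 3 and 5, E+3P replicate 4 and E+7P replicates 2, 3 and 5), with an adjusted p of up to 0.146. That of IL2RB was lost in 17, with an adjusted p of up to 0.14, and held only without E2 replicate 2, E+1P replicate 4, E+3P replicate 1, 2, 3 or 5 or E+14P replicate 1 or 2. An F test asked whether any of the 4 progesterone groups differed from E2, and called 6 genes (17.6%, against 12% of all genes). They were UBASH3A (adjusted p = 0.0156), EOMES (0.0233), IL2RB (0.0297), CD28 (0.034), NKG7 (0.0353) and CST7 (0.0476). The F test no longer called EOMES without E+14P replicate 4 (adjusted p = 0.0692) or UBASH3A without E2 replicate 3 or 4 (up to 0.0624). Its calls of CD28 (without any E2 array, up to 0.0962), IL2RB (without E2 replicate 3, 4 or 5 or E+14P replicate 3 or 4, up to 0.0659), NKG7 (11 of 25 fits, up to 0.0881) and CST7 (20 of 25 fits, up to 0.0974) rested on more arrays. In all, 8 of the 34 genes were called in at least 1 of the 9 tests and 26 in none.

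Differences between animals of the same group limited these calls. The pooled SD within groups had a median of 0.34 over the 34 genes, from 0.19 for CD6 to 0.93 for GZMB, where the median of all genes was 0.24. Several genes with the largest 14-day changes and no call, such as KLRK1, GZMK and CD3G, had standard errors of 0.45 to 0.47, against 0.21 for UBASH3A and 0.22 for EOMES. A missed threshold in such genes does not show that they did not differ.

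Genes outside the list that act on or in the same cells were counted for the same comparisons. Among 21 lymphocyte cytokines and homing chemokines with their receptors, 2 rose at 7 and at 14 days, namely IL15 and CXCR3 (9.52% of the list, where 2.27% and 2.26% of all genes were called higher). At 3 days CXCR3 rose and IL2 fell. IL15 signals were 5.53, 5.84, 4.75, 5.60 and 5.24 in E2, 5.00, 5.36, 5.58, 5.60 and 5.23 in E+1P, 6.16, 4.91, 6.95, 5.78 and 6.04 in E+3P, 6.65, 6.46, 6.99, 6.35 and 6.65 in E+7P, and 6.86, 6.70, 7.26, 7.55 and 6.63 in E+14P. All arrays of E+7P and E+14P lay above the highest E2 array, 5.84. IL15 rose by 1.23 ± 0.27 at 7 days (adjusted p = 0.00937) and 1.61 ± 0.27 at 14 days (adjusted p = 0.00123), and both calls held without any single array. CXCR3, a homing receptor of effector T and natural killer cells, was 4.69 to 5.16 in E2 and 5.40 to 5.73 in E+3P, and rose by 0.60 ± 0.14 at 3 days (adjusted p = 0.00917), 0.53 ± 0.14 at 7 days (adjusted p = 0.0299) and 0.54 ± 0.14 at 14 days (adjusted p = 0.0293). Its 3-day call held without any single array but not with 3 tissue covariates (adjusted p = 0.0596). Its 7-day call was lost without E2 replicate 1, 2 or 4 or E+7P replicate 1, 3 or 5 (adjusted p up to 0.094), and its 14-day call without the same E2 arrays or E+14P replicate 1, 4 or 5 (up to 0.0973).

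**Figure D4:**
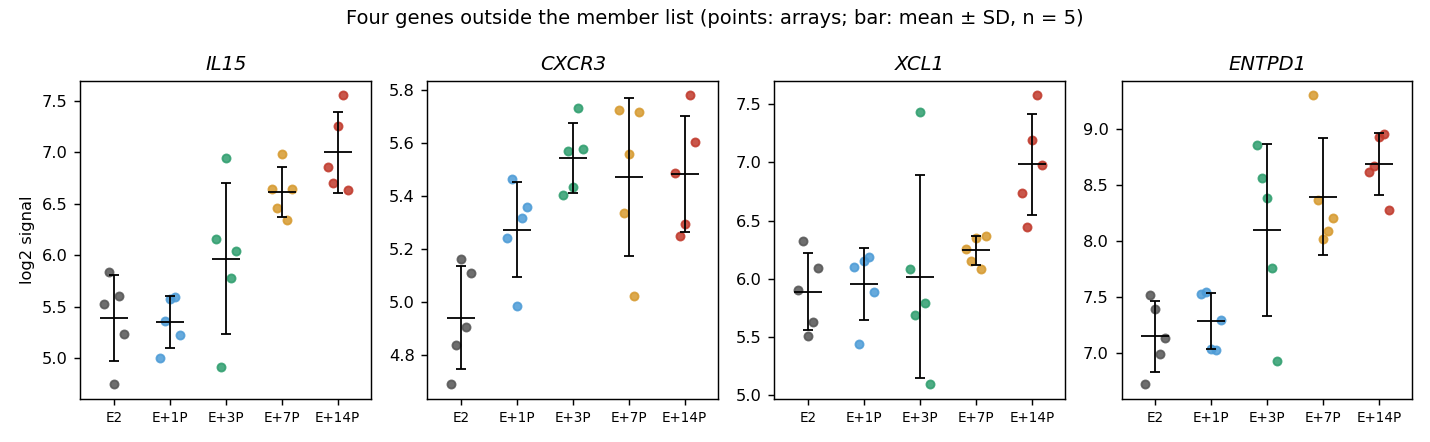
Log2 signal of IL15, CXCR3, XCL1 and ENTPD1 on each array (points) by group, with the mean ± SD of 5 arrays (bars). The vertical axes differ. IL15 and ENTPD1 lie above all E2 arrays in E+7P and E+14P, XCL1 in E+14P, and CXCR3 in E+3P and E+14P.

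Of 18 further natural killer and innate lymphoid genes 1 rose at 14 days and 1 at 3 days (5.56% each, against 2.26% and 5.03% of all genes called higher). The share at 3 days is near that of all genes. The first was XCL1 (lymphotactin), a chemokine made by natural killer and CD8 T cells, which was 5.51 to 6.32 in E2 and 6.44 to 7.57 in E+14P, a rise of 1.09 ± 0.29 (adjusted p = 0.0351). That call was lost without E2 replicate 1, 3, 4 or 5 or E+14P replicate 3, 4 or 5, with an adjusted p of up to 0.109. The second was NCAM1 (CD56), which also marks nerve and muscle. NCAM1 rose at 3 days by 1.03 ± 0.33 (adjusted p = 0.0478) with an E+3P range of 4.81 to 7.56, while the smooth muscle genes on those arrays averaged 6.56 to 9.39, against 6.56 to 8.40 in E2. With the smooth muscle mean as a covariate the call was lost (adjusted p = 0.204), as it was in 22 of 25 fits without 1 array (adjusted p up to 0.123), and it held only without E+3P replicate 5, E+7P replicate 2 or E+14P replicate 2. NCR1 (NKp46), a receptor largely restricted to natural killer and innate lymphoid cells, changed by 0.34 ± 0.17 at 14 days (adjusted p = 0.303). CD160, a receptor of cytotoxic lymphocytes, passed only the F test (adjusted p = 0.0484), a call that 20 of 25 fits without 1 array lost (up to 0.0952) and that held only without E+3P replicate 4 or 5, E+7P replicate 3 or 4 or E+14P replicate 3. CD160 changed by 0.44 ± 0.13 at 14 days (adjusted p = 0.0541).

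Of 21 further T cell genes 1 rose and 1 fell at 14 days (4.76% each, against 2.26% of all genes called higher and 3.53% lower). IKZF1 (Ikaros), a transcription factor of all lymphocytes, rose by 0.90 ± 0.26 (adjusted p = 0.0494), a call that 20 of 25 fits without 1 array lost (adjusted p up to 0.141) and that held only without E+3P replicate 2, 3 or 5 or E+14P replicate 2 or 5. LEF1, a transcription factor of naive T cells that also serves Wnt signals in other cells, fell by 0.74 at 1 day, 0.77 at 3 days, 0.69 at 7 days and 0.66 at 14 days on the log2 scale (adjusted p from 0.00505 to 0.0206). Its 14-day call was lost without E2 replicate 4 (0.0707) or E+14P replicate 2 (0.0621). SIT1, an adaptor that dampens antigen receptor signals, rose at 3 days by 0.34 ± 0.11 (adjusted p = 0.0402), a call lost without E2 replicate 1, 3, 4 or 5 or E+3P replicate 2, 3 or 4 (up to 0.0967) and with array centring (0.0709) or the smooth muscle covariate (0.0549). CD4, of helper T cells and macrophages, changed by 0.44 ± 0.18 at 14 days (adjusted p = 0.216), and FOXP3, the factor of regulatory T cells, by 0.08 ± 0.13 (adjusted p = 0.826).

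Among 14 further effector and checkpoint genes 3 rose at 3 days, namely ENTPD1 (CD39), IL2RA (CD25) and PDCD1 (PD-1), which is 21.4% of them where 5.03% of all genes were called higher. ENTPD1 also rose at 7 and at 14 days (7.14% each time, against 2.27% and 2.26%). ENTPD1, an ectonucleotidase also carried by endothelium, rose by 1.24 ± 0.28 at 7 days (adjusted p = 0.0115) and 1.53 ± 0.28 at 14 days (adjusted p = 0.00256), from 6.72 to 7.52 in E2 to 8.28 to 8.95 in E+14P. IL2RA rose by 0.52 ± 0.12 (adjusted p = 0.00917) and PDCD1 by 0.46 ± 0.14 (adjusted p = 0.0351) at 3 days, the time at which CTLA4 was called. On E+3P replicate 2, CD2 (3.95) and GZMB (4.07) were lowest of all 25 arrays, while PDCD1 was 6.15, above every E2 array. On E+3P replicate 5, PTPRC (4.91) and GZMK (4.40) were lowest, while CTLA4 (3.43) and IL2RA (5.49) lay above every E2 array. On E+3P replicate 3, PTPRC was highest (8.59), CTLA4 (3.73) and IL2RA (5.92) were highest within E+3P, and PDCD1 (5.48) was lowest there. The reason was not tested. The PDCD1 call was lost without E2 replicate 1 or 2 or E+3P replicate 1, 2 or 4 (adjusted p up to 0.105). The 3-day rise of ENTPD1, 0.94 ± 0.28 (adjusted p = 0.034), was lost without E2 replicate 1, 4 or 5 or E+3P replicate 1, 2 or 3 (up to 0.0919), and its rises at 7 and 14 days held without any single array. With the smooth muscle mean as a covariate the 3-day change of ENTPD1 was 0.56 (adjusted p = 0.145), and PDCD1 was not called either (adjusted p = 0.0959). With 3 tissue covariates the 3-day change was 0.47 for ENTPD1 (adjusted p = 0.368) and 0.48 for IL2RA (adjusted p = 0.0806).

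Marker lists of other cells were read on the same arrays. The 11 B and plasma cell genes averaged 4.98 to 5.25 on the E2 arrays and 5.34 to 5.76 on the E+14P arrays, without overlap, while 0 of the 11 passed the test at 14 days and 10 of 11 changes were above 0. Their median change was 0.20, and single genes ran from -0.048 to 1.68. The 15 myeloid genes averaged 5.69 to 6.23 in E2 and 5.84 to 6.28 in E+14P. Of their 14-day changes 11 of 15 were above 0, with a median of 0.38, and 1 gene was called lower, LYZ (lysozyme, also made by glandular epithelium). Single myeloid genes ran from -2.17 to 0.54. The means of both lists thus lean on single genes, and by the median the myeloid change was the larger. Squamous epithelial genes averaged 4.58 to 7.27 in E2, 4.70 to 10.19 in E+3P and 5.11 to 8.49 in E+14P, and columnar genes 7.43 to 8.23, 5.31 to 8.07 and 6.76 to 7.69. Smooth muscle genes averaged 6.56 to 8.40 in E2 and 7.02 to 9.03 in E+14P, and their 14-day changes were above 0 for 19 of 19 genes, with a median of 0.72 that is above the lymphocyte genes' 0.69, although 0 of the 19 were called and 2 had an unadjusted p under 0.05. Ciliated cell genes averaged 6.27 to 7.41 in E2 and 4.83 to 6.66 in E+14P, with 17 of 18 changes not above 0, a median of -0.90 and 3 genes called lower. At 14 days 4 of the 22 columnar genes were called lower. At 3 days 6 columnar and 6 ciliated genes were called lower and 1 columnar gene higher. Of 12 endothelial genes 3 were called higher at 3 days and 0 at 14 days. Of all genes 5.03% were called higher and 7.16% lower at 3 days. At 14 days 2.26% were higher, 3.53% lower and 54.3% had a change above 0. The part of these other cells in the lymphocyte changes was not tested. List means from the same arrays were used as covariates, but these differed between groups themselves. The columnar mean was 7.97 in E2 and 7.31 in E+14P, and the smooth muscle mean 7.10 and 7.85. Such a fit cannot separate tissue from treatment. With the squamous, columnar and smooth muscle means as covariates, 4 lymphocyte genes were called at 14 days and 1 at 3 days. Those that lost their call were CST7 (adjusted p = 0.0934) and CD28 (0.0759) at 14 days and UBASH3A (0.078), CD28 (0.164) and CD5 (0.164) at 3 days. Among the other genes named, XCL1 (0.077), CXCR3 (0.0608) and IKZF1 (0.114) lost their 14-day calls, and LEF1 its 3-day call (0.0635). A covariate for ciliated cells was not run.

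**Figure D5:**
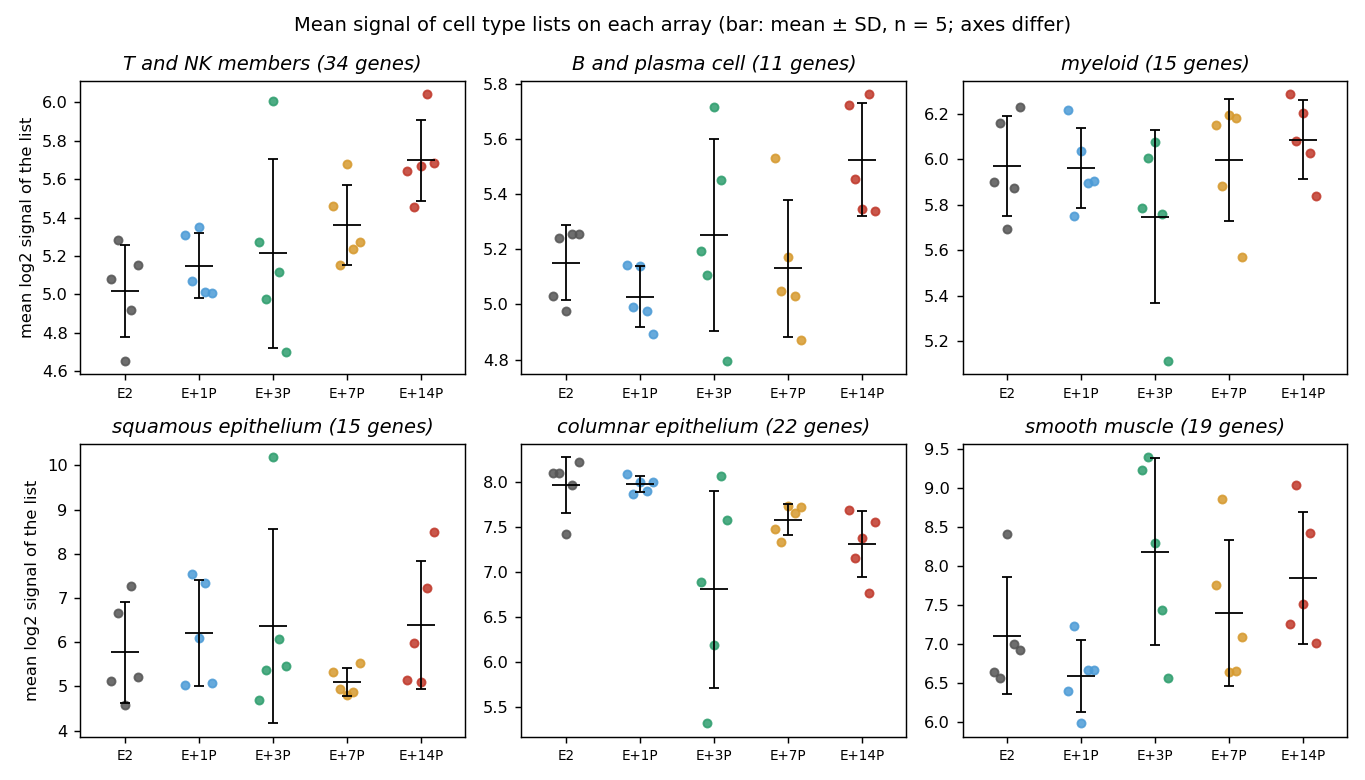
Mean log2 signal of 6 gene lists on each array (points) by group, with the mean ± SD of 5 arrays (bars). The vertical axes differ. The T and natural killer list and the B and plasma cell list do not overlap between E2 and E+14P, the myeloid list does, and 1 E+3P array reaches 10.19 in the squamous list. Single genes weigh on these means. The median change from E2 to E+14P was 0.20 for the B and plasma cell genes and 0.38 for the myeloid genes.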

How the data were processed

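Gene expression was measured in the cervix of 25 rhesus macaques with 1 Affymetrix whole-transcript array each. Per the labels, total RNA was extracted with Trizol and RNeasy columns, amplified with the NuGEN Pico WTA kit and labelled with biotin. Affymetrix Expression Console made the values, per the submitters' processing notes, and how it summarized and normalized them is not stated in the sources used here. The deposited values were read as log2 signals from their range, 0.618 to 13.69, and the sorted values of any array deviated by at most 0.29 from their mean over arrays. No detection calls or background values were used, and precision is limited by how many arrays there are.

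Of 40489 probe sets, 16020 were listed with 1 gene symbol, 490 with several and 23979 with none in GEO's platform annotation, which can be old. A gene was taken as its probe set with the highest mean. The members and all gene lists were chosen with earlier results of these data known. Values in every array are printed for the genes called in any test and, up to 10, those with the lowest F test p. From other lists, called genes (up to 4 per list by lowest p) and CD4, NCR1, NCAM1, FOXP3 and IL15 could be named. NLRC5 was named after its values were seen. Gene order was read from RefSeq.

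Tests used limma 3.58.1 (R 4.3.3), with 1 coefficient per group, all 25 arrays, 20 residual degrees of freedom and a variance trend. P-values were 2-sided and adjusted by Benjamini-Hochberg over all probe sets, with a threshold of 0.05. There were 9 tests, namely 4 groups against E2, 3 consecutive comparisons, the mean of the 4 progesterone groups against E2 and an F test. The p-values pool the spread over 5 groups, although E+3P varied more than the others. The procedure was tested on simulated data. Alternatives were up to 12 other settings and leaving out each array. Figures were drawn with matplotlib 3.10.9.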

Additional observations from a re-analysis of the deposited data

Results flagged for a closer look

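In each group of 5 arrays, the gap between the highest or lowest array and the nearest other, divided by the range of the group, was compared with Dixon's 95% critical value of 0.71 for each of the 34 genes and for their mean. Of 175 groups 9 exceeded it, and chance gives about 1 in 20.

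SKAP1 on E2 replicate 3 was the farthest, with a ratio of 0.929, at 5.85 where the other E2 arrays lay between 7.32 and 7.43. CTLA4 on E+14P replicate 5 had a ratio of 0.912, at 3.91 against 3.02 to 3.10. SH2D2A on E+7P replicate 5 had a ratio of 0.832, at 5.52 against 5.16 to 5.22. TIGIT on E+1P replicate 5 was low with a ratio of 0.746, at 3.65 against 4.10 to 4.26. E+7P replicate 3 was high for SH2D1A, with a ratio of 0.729 (4.87 against 4.34 to 4.49), and for NKG7, with a ratio of 0.727 (6.87 against 5.80 to 6.09). CD69 on E+14P replicate 1 had a ratio of 0.717, at 3.98 against 3.41 to 3.57. EOMES on E+1P replicate 1 had a ratio of 0.714, at 5.50 against 4.82 to 5.01. PTPRC on E+14P replicate 4 had a ratio of 0.712, at 8.53 against 7.59 to 7.86.

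For 0 of the 34 genes did all arrays of one progesterone group lie above E2 and all of another below it.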

How the results depend on the processing

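No paired analysis was possible because the replicate numbers follow accession order and pair no animals across groups. Of 77 changes of single genes followed under the alternatives, 0 changed direction while called, and the uncalled 14-day changes of SKAP1, CD7 and RUNX3 turned below 0 under some. SKAP1 was -0.013 with centring on array medians and -0.11 with array weights. CD7 was -0.016 with 3 covariates and -0.062 without the arrays that stand apart, where the list's median from E+1P to E+3P was -0.064. The list's median change at 14 days stayed between 0.55 and 0.74 over 12 other settings and between 0.52 and 0.76 without single arrays. With a minimum change of 1.5-fold, 0 lymphocyte genes were called at 1, 3, 7 and 14 days and for the mean of the progesterone groups, where 1, 4, 1, 6 and 4 had been. Without probe sets under the 40th percentile the counts were 0 at 1 day, 2 at 3 days, 0 at 7 days, 1 for the mean and 1 from E+1P to E+3P, where 0 had been called. Some members are then no longer tested, among them UBASH3A, CD28 and CTLA4. At 3 days the count was 1 with 3 covariates, 2 with the compared groups alone and 0 without the arrays that stand apart. At 7 days it was 0 after quantile normalization or centring on array medians, 2 with array weights, 1 probe set per gene, 3 covariates or the compared groups alone, and 3 without the arrays that stand apart. One probe set per gene gave 1 call from E+1P to E+3P. Centring gave 2 for the mean. The F test gave 3 with the smooth muscle covariate. Leaving out single arrays gave 0 to 1 call at 1 day, 3 to 7 at 3 days, 0 to 2 at 7 days, 3 to 11 at 14 days, 0 to 2 from E+1P to E+3P, 0 to 0 for the later steps, 2 to 5 for the mean and 1 to 12 for the F test. The causes were not tested. Counts over all genes, 552, 1895, 909 and 900 at 1, 3, 7 and 14 days, were 25, 17, 3 and 14 with a minimum change of 1.5-fold. They were 1103 at 1 day and 1470 at 7 days with array weights. With the compared groups alone they were 363 at 3 days and 572 at 14 days. At 3 days they were 920 without the arrays that stand apart, or 843 with 3 covariates. From E+1P to E+3P, 915 became 21 with the minimum change, 211 with the smooth muscle covariate, 189 with 3 covariates, 173 with the compared groups alone and 263 without the arrays that stand apart. From E+3P to E+7P, 1 became 0 to 2 under the other settings and 41 without E+3P replicate 5. For the mean, 1422 became 14 with the minimum change. Without single arrays the counts fell as low as 360 at 1 day (E+1P replicate 1), 1213 at 3 days (E+3P replicate 2), 577 at 7 days (E+7P replicate 5), 529 at 14 days (E+14P replicate 4) and 842 for the mean (E2 replicate 4), and from E+1P to E+3P they ran from 444 (E+3P replicate 2) to 1897 (E+3P replicate 5). Signal over background is unknown, so the dimmest genes, CTLA4 and ICOS, are the least certain. UBASH3A and CD28, the genes called in the most tests, were also dim. Their means lay at percentiles 24.3 and 26.3 of all probe sets.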

Other observations

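Genes of MHC class I presentation, through which target cells show peptides to CD8 T cells, moved early. At 1 day 4 of the 9 measured were lower (1.47% of all genes were called lower) and 0 higher. PSMB10, an immunoproteasome subunit, fell by 0.80, CALR (calreticulin), a chaperone of the peptide-loading complex, fell by 0.71, ERAP1, which trims peptides, fell by 0.53 and TAPBP (tapasin) fell by 0.41 on the log2 scale (limma adjusted p from 0.00491 to 0.041). The calls of ERAP1 (without E2 replicate 2, 4 or 5, E+1P replicate 2, 3 or 5 or E+7P replicate 4, adjusted p up to 0.133) and TAPBP (without E2 replicate 1, 2 or 5 or E+1P replicate 1, 2, 4 or 5, up to 0.09) rested on single arrays. PSMB10 rose again from E+1P to E+3P, by 0.70 (adjusted p = 0.0198, and 0.0571 without E+3P replicate 1). CALR was lower at each of the 4 times, by 0.59 to 0.71, and also serves protein folding in every secretory cell. At 14 days 1 of the 9 was called higher and 1, CALR, lower (2.26% and 3.53% of all genes). The gene called higher was NLRC5, the transactivator of class I genes, which rose by 0.52 ± 0.14 (SE, adjusted p = 0.0333). NLRC5 was not followed under the other settings or without single arrays.

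The probe set of IL2, the growth factor of activated T cells, fell by 1.00 at 3 days (adjusted p = 0.042, and up to 0.104 without E2 replicate 2, 4 or 5 or E+3P replicate 1, 2, 4 or 5), and in the mean of the progesterone groups it fell by 0.98 on the log2 scale (adjusted p = 0.0162, and up to 0.0757 without E2 replicate 4 or 5). Its IL2 signals lay near the bottom of the scale, at 2.81, 2.90, 1.81, 3.29 and 4.59 in E2, and between 1.77 and 2.94 in the other groups. The 7 measured genes of tissue residence and egress, which govern whether lymphocytes stay in a tissue, had 0 calls by limma at 14 days and 4 of 7, or 57.1%, at an unadjusted p under 0.05, against 21.2% of all genes. All 7 changes were above 0 (54.3% of all genes), with a median of 0.25.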
